A study of Mus musculus with 18 samples.

Results

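Matrix metalloproteinases are zinc-dependent proteases that cut the proteins of the extracellular matrix, and the tissue inhibitors of metalloproteinases (TIMPs) bind and block them. This account covers 9 genes of mouse, chosen by symbol: the gelatinases Mmp9 and Mmp2, the macrophage elastase Mmp12, the collagenase Mmp13, the membrane-anchored Mmp14, the secreted Mmp19, and the inhibitors Timp1, Timp2 and Timp3. All 9 were found among the 21441 genes of the macrophage table and of the liver table. The macrophage samples are RAW264.7 cells, a macrophage-like mouse line, in 3 groups of 3 libraries: control (saline in the design text, solvent in the study's text), LPS (lipopolysaccharide, the outer membrane component of Gram-negative bacteria), and LPS with MIC-1, the isothiocyanate of Moringa. The liver samples are from wild type C57BL/6 mice in the same 3 groups, also 3 libraries each, out of 6 animals per group. Over 3 days the mice received MIC-1 (80 mg/kg, in DMSO) or vehicle by gavage, and only the LPS+MIC-1 group received MIC-1. They were then injected intraperitoneally with LPS (10 mg/kg), or with saline in the control group, and killed 16 h later. For the cultures the design text gives 10 µM MIC-1, whereas the sample labels repeat the mouse doses. RAW264.7 is 1 transformed line, and a liver library holds the RNA of all liver cell types.

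The proteases are made as inactive proenzymes. Mmp14 sits in the cell membrane and activates pro-Mmp2 in a complex that needs Timp2, so an inhibitor of the family also takes part in activating a member. Macrophages and neutrophils are known sources of Mmp9, and hepatic stellate cells of Timp1 and Mmp2. In liver, Timp1 is a known gene of injury and of the acute inflammatory response. Only RNA was measured here, not secreted protein or enzyme activity.

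The proximal promoters of 5 of the 9 genes are shown, and they differ in the motif letters they hold. Mmp13 and Mmp12 hold the AP-1 letters TGANTCA shortly before the start, whereas Timp1, Timp2 and Mmp14 hold the GC box letters GGGCGG. Timp3 also holds the GC box letters and is not shown, and Mmp9 had no promoter entry. The sequences are the 120 bases before the annotated start in RefSeq (GRCm38.p6), printed 5′ to 3′ on the strand of the gene. Capitals mark the AP-1 match in Mmp13 and Mmp12 and the GC box matches on either strand in the others.
Mmp13, chr9:7272394-7272513, plus strand: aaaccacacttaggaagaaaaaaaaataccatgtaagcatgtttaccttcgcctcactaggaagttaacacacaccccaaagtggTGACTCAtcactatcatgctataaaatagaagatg
Mmp12, chr9:7347254-7347373, plus strand: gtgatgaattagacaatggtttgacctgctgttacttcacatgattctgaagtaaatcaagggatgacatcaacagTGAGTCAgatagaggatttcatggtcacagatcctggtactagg
Timp1, chrX:20870046-20870165, plus strand: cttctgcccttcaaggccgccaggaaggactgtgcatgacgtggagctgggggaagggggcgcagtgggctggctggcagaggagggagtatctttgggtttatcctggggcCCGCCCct
Timp2, chr11:118355412-118355531, minus strand: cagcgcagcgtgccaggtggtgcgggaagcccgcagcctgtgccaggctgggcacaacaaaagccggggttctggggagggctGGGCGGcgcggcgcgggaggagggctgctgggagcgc
Mmp14, chr14:54431478-54431597, plus strand: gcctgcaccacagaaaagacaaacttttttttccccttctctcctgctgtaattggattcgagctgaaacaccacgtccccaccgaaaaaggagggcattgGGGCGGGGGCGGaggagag

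The AP-1 match lay 35 to 29 bases before the start of Mmp13 and 44 to 38 bases before that of Mmp12. Mmp13 also held TATAAA 16 to 11 bases before its start. The table matched 6 of the 9 members with 7 entries (Mmp2, Mmp9 and Mmp19 had no entry), and the other start of Mmp12 held none of the motifs searched. Over 250 bases before the start, on either strand, 6.75% of 32851 regions held TGANTCA, 12.4% TATAAA, 32.7% GGGCGG and 1.55% the CRE letters TGACGTCA. The CRE contains no match of the other motifs, and a match is a description of the letters only.

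In the mm9 genome, Mmp13 (chr9:7272514-7283333) and Mmp12 (chr9:7344381-7369499) lie on the plus strand in 1 cluster of 10 Mmp genes that spans 427 kb of chromosome 9. The other members are dispersed. Mmp9 is at chr2:164766280-164781350, Mmp2 at chr8:95351227-95377316, Mmp14 at chr14:55050441-55060095 and Mmp19 at chr10:128228009-128237880. Timp1 (chrX:20447292-20451861) lies within Syn1 on the opposite strand, and 0 of their exons overlap. Timp3 (chr10:85763117-85812251) lies within Syn3 on the opposite strand, with 1 pair of overlapping exons. Timp2 is on the minus strand at chr11:118162383-118217054. Whether reads were assigned by strand is not given in the sources used here.

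Levels are FPKM, fragments per kilobase of transcript per M fragments, which can be set side by side between genes. Libraries are numbered within a group by their column order, since the columns carry no replicate number. Depth was estimated at 16.18 to 20.66 M reads in macrophages. In liver it was 4.26 to 9.71 M for control and 10.98 to 17.28 M for the treated libraries. LPS library 2 of the macrophages stood apart from its group. It correlated at 0.98 to 0.99 with the controls and at 0.86 and 0.862 with the other LPS libraries, so macrophage fits were made with all 9 libraries and with the 8 other than this one. The legend of the study's macrophage figure gives 2 LPS replicates and does not say which library was left out. Here library 2 was left out for its values, a choice made after seeing the data. Control library 2 correlated at 0.99 with LPS library 2, but at 0.984 and 0.983 with control libraries 1 and 3, which correlated at 0.991. LPS+MIC-1 library 2 correlated at 0.977 and 0.975 with libraries 1 and 3 of its group, which correlated at 0.988. Fits with libraries 1 and 3 of each macrophage group averaged as 1 are therefore also given. In liver, LPS library 2 and LPS+MIC-1 library 2 correlated at 0.947 with each other and at 0.889 to 0.935 with libraries 1 and 3 of their groups, which correlated at 0.979 within each group. Liver LPS library 2 correlated at 0.855 to 0.886 with the controls, whereas LPS libraries 1 and 3 correlated at 0.714 to 0.824 with them. The macrophage markers Lyz2, at 8726 to 10750 FPKM, and Csf1r, at 107.6 to 422.8 FPKM, were high in every RAW264.7 library. Of the 9 measured monocyte or macrophage markers, 6 had a mean above 1 FPKM there. Ly6c2, Ly6c1 and Chi3l3 did not, at 0 to 0.0647 FPKM. The hepatocyte marker list summed to 32900 FPKM or more in every liver library.

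A gene was called where its Log2FC exceeded 1 in size with an adjusted p-value below 0.01 in macrophages or 0.05 in liver, by limma on log2(FPKM + 0.5) with Benjamini-Hochberg adjustment over all genes with a mean FPKM above 1 (9905 in macrophages and 10147 in liver). Of the 9 members, 6 passed this filter in each table. Mmp2, Mmp13 and Timp3 were below it in macrophages, and Mmp2, Mmp12 and Mmp13 in liver. These are given by their values and by a fit without the filter. Mmp12 and Timp1 in macrophages and Mmp9 and Timp1 in liver passed only through treated libraries, so the filter itself favours a difference for them. Without the filter their calls at the same comparisons were kept. Among called genes named below that are not members, some had a group mean above 1 FPKM only in treated groups. These were Mmp8 and Serpinb2 in macrophages and Mmp7, Mmp8, Adamts1 and Nid1 in liver. Plau and Eln in liver had it only in the controls. The filter favours a difference for these genes too, and no fit without it is given for them. Log2FC values on this scale understate the change of genes with low FPKM. Nothing in the labels says that the macrophage libraries are separate cultures, so p-values there measure the spread between libraries.

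In control macrophages Mmp9 was the highest of the 9 genes in mean level, followed by Mmp19, Mmp14 and Timp2. Mmp9 was at 5.91, 26.0 and 5.92 FPKM in control libraries 1, 2 and 3. Library 2 was above the others, and only there was Mmp9 clearly above Mmp14 (3.77, 6.86 and 3.44 FPKM) and Mmp19 (4.35, 5.93 and 3.92 FPKM). Mmp14 and Mmp19 did not differ beyond their spread. Timp2 was at 1.59, 2.72 and 1.60 FPKM, below both. Mmp2, Timp1 and Mmp12 were between 0.198 and 0.350 FPKM, with ranges that overlapped between each pair of them. Timp3 was at most 0.0660 FPKM in any of the 9 libraries, and Mmp13 was listed at 0 in 2 of the 3 controls.

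**Figure D1:**
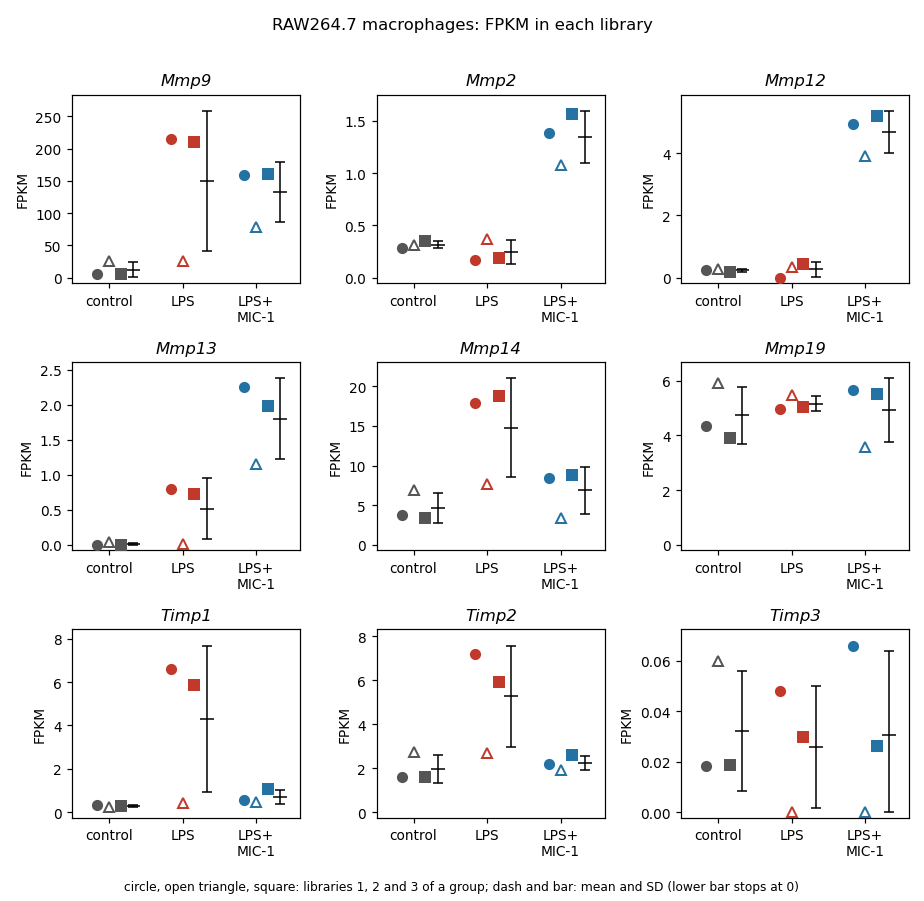
FPKM of the 9 genes in each RAW264.7 library, by treatment, on a linear axis of its own per gene. The LPS library drawn as an open triangle lies near the controls for Mmp9, Mmp14, Timp1 and Timp2, and the 3 LPS+MIC-1 libraries are highest for Mmp12, Mmp13 and Mmp2.

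With LPS, the macrophages raised both sides of the system: the proteases Mmp9 and Mmp14 and the inhibitors Timp1 and Timp2, over the 8 libraries. After LPS, Mmp9 was at 215, 25.4 and 210 FPKM. Libraries 1 and 3 were far above every control, and library 2 was within the range of the controls. Over 8 libraries the Log2FC was 4.37 ± 0.62 (SE, adjusted p = 0.000361). Mmp14 was at 17.9, 7.66 and 18.8 FPKM. All 3 values lay above the controls, with library 2 close to the highest of them, and the Log2FC over 8 libraries was 1.92 ± 0.41 (adjusted p = 0.0031).

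Timp1 was at 6.61, 0.428 and 5.86 FPKM with LPS, about 68, 7 and 64 reads, against 0.338, 0.244 and 0.291 FPKM or 6, 4 and 5 reads in the controls. The groups did not overlap, but library 2 was again next to the controls. The Log2FC over 8 libraries was 3.09 ± 0.22 (adjusted p = 1.06e-05). Timp2 was at 7.18, 2.71 and 5.92 FPKM, with library 2 inside the control range, and its Log2FC over 8 libraries was 1.54 ± 0.22 (adjusted p = 0.000335). Syn1, the gene that holds Timp1, was at 1.24, 1.72 and 1.296 FPKM in control, against 4.75, 2.30 and 4.73 FPKM in the LPS libraries.

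Thus 4 of the 6 tested members passed over 8 libraries, all higher, where 16.3% of all tested genes passed as higher and 34.2% in either direction. Mmp12 (Log2FC -0.12 ± 0.27) and Mmp19 (0.09 ± 0.22) did not pass. Over all 9 libraries, 0 of the 6 members and 0 (0%) of all genes passed with limma. The same 4 members had an unadjusted limma p-value below 0.05 together with the minimum fold change, as did 19.2% of all tested genes. Their adjusted p-value was 0.0777, with Log2FC values of 3.36 for Mmp9, 1.52 for Mmp14, 2.14 for Timp1 and 1.16 for Timp2. With each library's FPKM brought to an equal sum, Mmp14 (0.98) and Timp2 (0.67) no longer passed over 8 libraries, while the median of all genes moved from -0.02 to -0.93. The deposited FPKM summed to 1137533 and 1132904 in LPS libraries 1 and 3 and to 557136 to 652486 in the others. Mmp14 over 8 libraries also fell short when control library 1 (1.81, limma, adjusted p = 0.0114) or 3 (1.75, adjusted p = 0.0116) or LPS library 1 (1.96, adjusted p = 0.0185) or 3 (1.88, adjusted p = 0.0215) was left out. With libraries 1 and 3 of each group averaged as 1, only Timp1 of the members passed. The last 3 of these settings leave 1 LPS value, which is assumed to vary like the other groups.

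Mmp13, below the filter, was at 0.803, 0.0181 and 0.727 FPKM with LPS, or 28, 1 and 27 reads, against 0, 2 and 0 reads in control. Relative to the depth of the groups this is a ratio of 28.5, with a 95% interval of 7.54 to 241 that covers counting error only. Libraries 1 and 3 carried all but 1 of these reads. Without the filter, the Log2FC over 8 libraries was 1.31 ± 0.21 (limma, adjusted p = 0.00191), and over 9 it was 0.88 ± 0.36 (adjusted p = 0.13). Mmp2 was at 0.173, 0.374 and 0.185 FPKM, overlapping its controls, and Timp3 was at 0 to 0.0478 FPKM.

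MIC-1 together with LPS split the family. Mmp12 rose, as did Mmp2 in the fit without the filter, whereas the inhibitors Timp1 and Timp2 fell over the 8 libraries to levels near those of the controls. The proteases Mmp14 (Log2FC -1.46) and Mmp9 (-0.75) were also lower over the 8 libraries, without passing the threshold. Mmp12 was at 4.94, 3.92 and 5.19 FPKM, about 342, 271 and 301 reads, with LPS+MIC-1. It was listed at 0 in LPS library 1 and at 0.356 and 0.432 FPKM in libraries 2 and 3, 27 and 22 reads. All LPS+MIC-1 libraries lay above all others, and the 2 other groups overlapped. The Log2FC against LPS was 2.92 ± 0.27 over 8 libraries (adjusted p = 5.39e-05) and 2.81 ± 0.27 over 9 (adjusted p = 0.000918), and against control 2.80 ± 0.24 over 8 (adjusted p = 5.41e-05) and 2.80 ± 0.27 over 9 (adjusted p = 0.000671). Over 9 libraries the call against LPS was lost with only these 2 groups in the fit (2.81, adjusted p = 0.0137) and with libraries 1 and 3 averaged (2.70, adjusted p = 0.118).

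Mmp2 was at 1.38, 1.08 and 1.57 FPKM with LPS+MIC-1, above all LPS libraries and controls. Without the filter its Log2FC against LPS was 1.43 ± 0.12 over 8 libraries (limma, adjusted p = 0.000141) and 1.31 ± 0.14 over 9 (adjusted p = 0.00208). Mmp13 was at 2.26, 1.15 and 1.99 FPKM, or 114, 58 and 84 reads, again above every LPS library. Its ratio to the controls, per read of depth, was 139 with a 95% interval of 38.1 to 1160 for counting error. Against LPS its Log2FC without the filter was 0.83 ± 0.21 over 8 libraries (adjusted p = 0.0171) and 1.26 ± 0.36 over 9 (adjusted p = 0.0592), neither past the threshold. With 3 libraries against 3, the exact permutation test (two-sided) of a single gene cannot give less than 0.1, which Mmp2, Mmp12 and Mmp13 each reached against LPS.

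Timp1 was at 0.540, 0.475 and 1.05 FPKM with LPS+MIC-1, only 8, 7 and 13 reads. These values lie below LPS libraries 1 and 3, somewhat above library 2, and above all the controls. The Log2FC against LPS was -2.53 ± 0.22 over 8 libraries (adjusted p = 4.2e-05) and -1.58 ± 0.70 over 9 (adjusted p = 0.139). Syn1 was at 8.50, 4.68 and 7.84 FPKM in these libraries. Both Timp1 and Syn1 were thus higher in LPS libraries 1 and 3 than in control. With LPS+MIC-1, Timp1 was below those LPS libraries, whereas Syn1 was above them in libraries 1 and 3. Whether reads of either gene were assigned to the other was not tested. Timp2 was at 2.18, 1.94 and 2.58 FPKM, below all 3 LPS libraries, with a Log2FC of -1.37 ± 0.22 over 8 libraries (adjusted p = 0.000842) and -0.99 ± 0.34 over 9 (adjusted p = 0.0696). Without LPS library 1 as well, it was -1.24 (adjusted p = 0.0101), with 1 LPS library left, assumed to vary like the other groups.

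Mmp9 kept most of its LPS level. It was at 160, 78.4 and 160 FPKM with LPS+MIC-1, below LPS libraries 1 and 3 and above every control. The Log2FC against LPS was -0.75 ± 0.62 over 8 libraries (adjusted p = 0.313) and 0.26 ± 0.89 over 9, so its direction turned on LPS library 2, and with FPKM brought to an equal sum it was 0.05 over 8. Against control it was 3.62 ± 0.56 over 8 libraries (adjusted p = 0.000915) and 3.62 ± 0.89 over 9 (adjusted p = 0.0231). Mmp14 was at 8.403, 3.44 and 8.75 FPKM, with library 2 at the level of the lowest control. Against LPS its Log2FC was -1.46 ± 0.41 over 8 libraries, just outside the threshold (adjusted p = 0.0137), and -1.05 ± 0.46 over 9 (adjusted p = 0.132). Mmp19 was at 5.66, 3.59 and 5.52 FPKM, overlapping both other groups.

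Between LPS+MIC-1 and LPS, 3 of the 6 tested members passed over 8 libraries (Mmp12 higher, Timp1 and Timp2 lower), where 23.3% of all tested genes passed, and 1 passed over 9 libraries (Mmp12), where 3.87% did. Against control, 2 passed over 8 libraries (Mmp9 and Mmp12, both higher), where 15.7% of all genes passed, and 1 over 9 (Mmp12), where 5.59% did. With FPKM brought to an equal sum, Timp2 fell short of the threshold against LPS over 8 libraries (-0.65), and the median of all genes moved from 0.01 to 0.74.

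**Figure D2:**
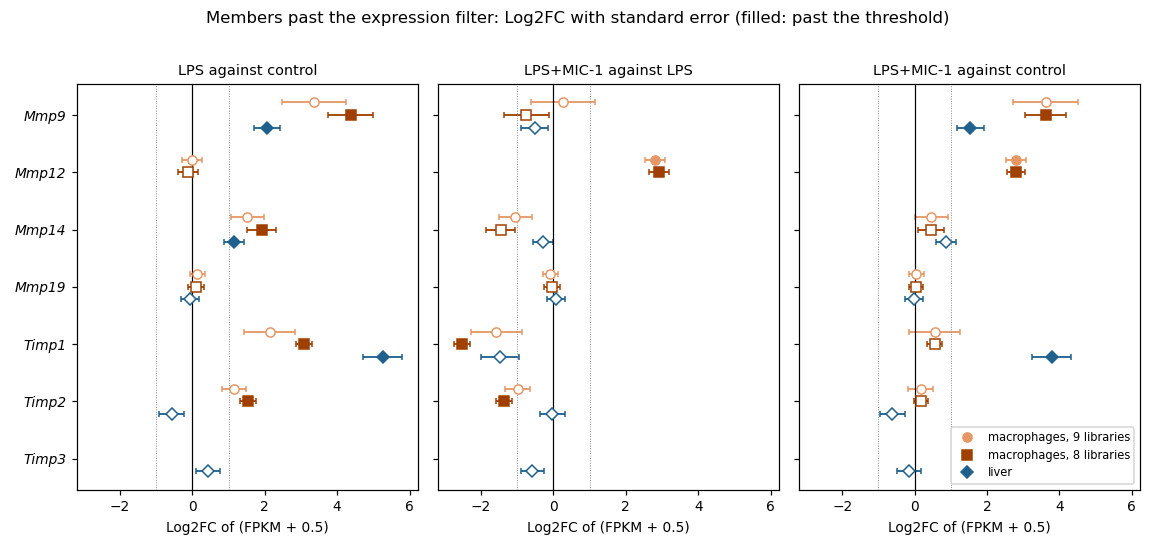
Log2FC of log2(FPKM + 0.5) with standard error for the members past the filter, in 3 comparisons and 3 fits; filled symbols passed the threshold and dotted lines mark a Log2FC of 1 in either direction. Over the 8 macrophage libraries Mmp12 (2.92) and Timp1 (-2.53) lie on opposite sides in LPS+MIC-1 against LPS, and in liver no member passed there.

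The summed FPKM of the 6 proteases was 7.47, 13.03 and 7.22 times that of the 3 inhibitors in control macrophages. It was 17.2, 12.5 and 19.9 times in the LPS libraries and 65.5, 37.9 and 50.1 times with LPS+MIC-1. The LPS+MIC-1 libraries were above all others in this ratio, which scaling between libraries does not change. Mmp9 made up 35.8, 61.3 and 37.6% of the summed FPKM of the 9 genes in the control libraries, 85.1, 59.9 and 85.02% after LPS alone and 86.3, 83.4 and 85.7% with LPS+MIC-1. Timp1 made up 2.62, 1.01 and 2.37% after LPS alone and 0.292, 0.505 and 0.561% with LPS+MIC-1. RNA ratios say nothing of the ratio of active enzyme to inhibitor.

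**Figure D3:**
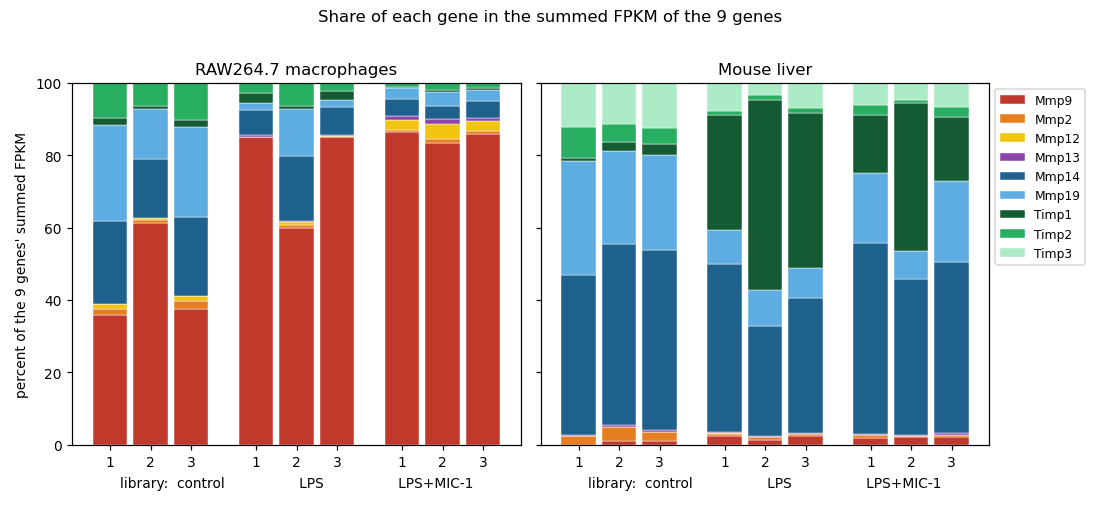
Share of each gene in the summed FPKM of the 9 genes, as stacked bars per library and tissue, in percent. Mmp9 fills 83.4 to 86.3% of the LPS+MIC-1 macrophage libraries, whereas in liver Mmp14 is the largest share in the controls (44.2 to 50.05%) and Timp1 takes 31.9 to 52.3% with LPS.

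The neighbours of Mmp12 and Mmp13 on chromosome 9 were examined as part of the rest of the family. Of the 10 genes of the cluster 9 are in the tables, and Mmp27 was not analysed here. Mmp8, a collagenase known from neutrophil granules, was at 0.0908, 0.157 and 0.0930 FPKM in the control macrophages, 1.23, 0.198 and 2.13 FPKM with LPS and 35.7, 21.4 and 35.2 FPKM with LPS+MIC-1. All LPS+MIC-1 libraries were above all others. Its Log2FC against LPS was 3.84 ± 0.26 over 8 libraries (adjusted p = 1.29e-05) and 4.38 ± 0.45 over 9 (adjusted p = 0.00107). Mmp3, a stromelysin, was listed at 0 in every control, at 0, 0 and 2 reads with LPS and at 18, 57 and 12 reads (0.547, 1.74 and 0.435 FPKM) with LPS+MIC-1. Mmp10 had at most 3 reads, Mmp7 at most 2 and Mmp20 at most 1 in any macrophage library, and Mmp1a and Mmp1b were listed at 0.

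Of the neutrophil markers S100a8 was also highest with LPS+MIC-1 in the macrophages, whereas Ltf, S100a9, Mpo and Elane were at or near 0. The summed level of the 10 measured neutrophil markers was 3.12 to 5.25 FPKM in control, 5.49 to 41.9 FPKM with LPS and 656 to 722 FPKM with LPS+MIC-1, of which S100a8 made up 651.5 to 718.2 FPKM. Ltf was at 0 in every library, and S100a9, Mpo and Elane were at most 0.4824, 0.02808 and 0.1324 FPKM. Fibroblast or stellate cell markers summed to at most 3.00 FPKM.

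**Figure D4:**
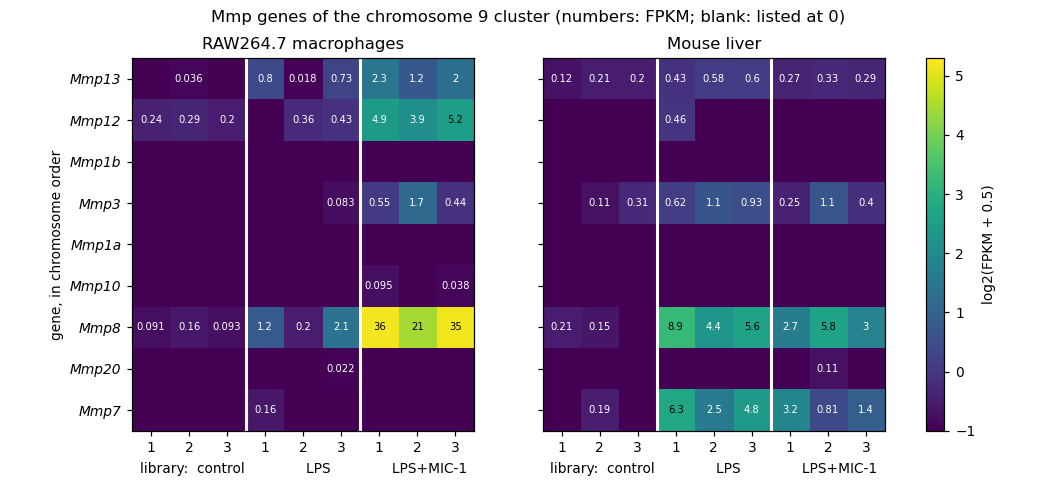
Levels of the 9 measured Mmp genes of the chromosome 9 cluster in each library, in chromosome order, coloured by log2(FPKM + 0.5) with FPKM printed in each cell and blank where a gene was listed at 0. In macrophages Mmp8, Mmp12, Mmp13 and Mmp3 are highest in the LPS+MIC-1 libraries, and in liver Mmp8 and Mmp7 are higher with LPS than in control.

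Genes that act with the metalloproteinases in macrophages are given from a list of activators, inhibitors, binding partners and receptors. Over 8 libraries 7 of the 9 tested genes of this list were called higher with LPS and 0 lower, where 16.3% of all genes were called higher (median Log2FC 1.58 against -0.02 for all genes). Lcn2, whose protein binds Mmp9, was at 5.56, 23.4 and 7.67 FPKM without LPS and 1661, 24.5 and 1670 FPKM after it. Its Log2FC was 7.30 ± 0.50 (limma, adjusted p = 8.11e-06), and that of the plasminogen activator inhibitor Serpinb2 was 6.07 ± 0.76 (adjusted p = 0.00018). With LPS+MIC-1 against LPS, 2 were called higher and 4 lower, where 23.3% of all genes were called (median -0.36 against 0.01). The highest were Serpinb2 (3.30 ± 0.76, adjusted p = 0.00582) and the urokinase receptor Plaur (1.22 ± 0.10, adjusted p = 3.52e-05). The lowest was Lrp1, an endocytic receptor for protease complexes (-1.60 ± 0.06, adjusted p = 1.97e-06). Over 9 libraries none of these 9 genes was called in these 2 comparisons, and 4 were called higher with LPS+MIC-1 against control, where 5.59% of all genes were called, led by Serpinb2 (9.36 ± 1.38, adjusted p = 0.00337).

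Of 6 tested ADAM and ADAMTS proteases, Adamts1 (2.13 ± 0.10, adjusted p = 1.76e-06) and Adam8 (1.14 ± 0.12, adjusted p = 6.8e-05) rose and Adam17, the sheddase that releases TNF (-1.53 ± 0.13, adjusted p = 1.94e-05), fell with LPS over 8 libraries, against 34.2% of all genes called, and 0 were called over 9. Between LPS+MIC-1 and LPS 0 of the 6 were called in either fit. Of the other Mmp genes and inhibitors 18 of 19 were in the tables and only Mmp8 passed the filter in macrophages. Of 11 matrix genes 1, the laminin chain Lamc1, passed it there, with a mean of 58.2 FPKM over the 9 libraries, and it was not called in any comparison.

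In control liver the order of levels was different. Mmp14 was the highest of the 9 genes at 23.8, 20.04 and 18.6 FPKM, above Mmp19 at 17.0, 10.3 and 9.85 FPKM. Timp3, the matrix-bound inhibitor, followed at 6.62, 4.58 and 4.63 FPKM and was the highest inhibitor, ahead of Timp2 at 4.55, 2.02 and 1.68 FPKM. Library 1 was the highest for all 4 of these genes. Mmp2 was at 1.31, 1.56 and 0.940 FPKM and Timp1 at 0.543, 0.935 and 1.14 FPKM, which overlap. Mmp9 was at 0, 0.405 and 0.340 FPKM and Mmp13 at 0.117, 0.209 and 0.204 FPKM, also overlapping. Mmp12 was listed at 0 in every liver library but LPS library 1 (0.465 FPKM, 27 reads). The tables were scaled separately, so no level was tested between tissues.

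**Figure D5:**
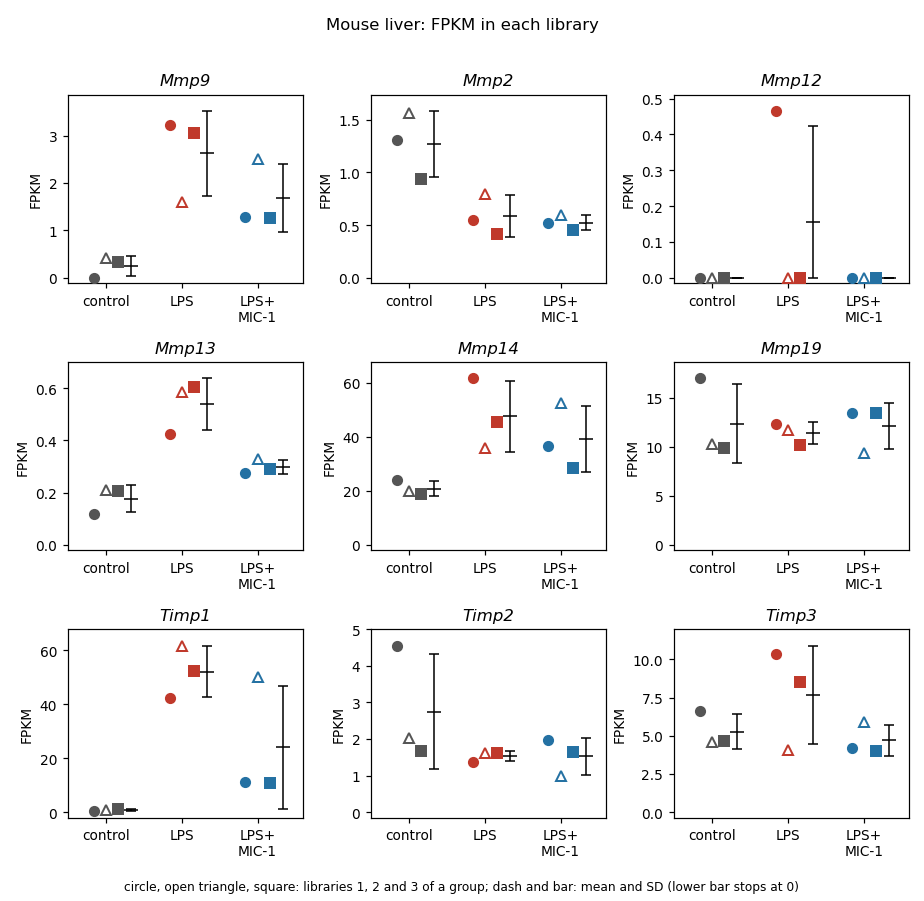
FPKM of the 9 genes in each liver library, by treatment, on a linear axis of its own per gene. Timp1 is above 42 FPKM in the 3 LPS libraries and in only 1 LPS+MIC-1 library, the open triangle, which also has the highest Mmp9 and Mmp14 of its group.

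With LPS the liver raised Timp1 most, and Mmp9 and Mmp14 with it. Timp1 was at 42.3, 61.5 and 52.3 FPKM with LPS against 4, 4 and 5 reads in the shallower controls. The groups were far apart, with a Log2FC of 5.27 ± 0.54 (limma, adjusted p = 0.000729). Mmp9 was at 3.21, 1.60 and 3.05 FPKM, all above the controls of 0, 7 and 6 reads, with a Log2FC of 2.06 ± 0.37 (adjusted p = 0.00621). Mmp14 was at 61.5, 35.7 and 45.2 FPKM, all above the controls, with a Log2FC of 1.14 ± 0.28 (adjusted p = 0.0161). With FPKM brought to an equal sum Mmp14 no longer passed (0.79, adjusted p = 0.0663). Its call was also lost without control library 2 (1.12, adjusted p = 0.0529), control library 3 (1.07, adjusted p = 0.056), LPS library 1 (0.94, adjusted p = 0.0603) or LPS library 3 (1.16, adjusted p = 0.0561). In whole liver, more cells of a type and more RNA per cell cannot be told apart.

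Thus 3 of the 6 tested members passed, all higher, where 13.4% of all genes passed as higher and 24.6% in either direction. Mmp19 was at 12.3, 11.7 and 10.2 FPKM, within the control range (Log2FC -0.07 ± 0.25). Timp2 was at 1.38, 1.62 and 1.60 FPKM, just below the lowest control, with a Log2FC of -0.57 ± 0.35 (adjusted p = 0.217). Timp3 was at 10.4, 4.09 and 8.53 FPKM, with library 2 below every control (0.43 ± 0.33, adjusted p = 0.327).

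Mmp13 and Mmp2, below the filter in liver, had reads in every group, and neither passed. Mmp13 was at 0.425, 0.584 and 0.605 FPKM with LPS, or 18, 17 and 24 reads, above the 3 reads of each control. Without the filter its Log2FC was 0.62 ± 0.12 (limma, adjusted p = 0.0123), below the minimum fold change. Mmp2 was at 0.549, 0.800 and 0.413 FPKM, below all controls, with a Log2FC of -0.70 ± 0.21 (limma, adjusted p = 0.0505).

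LPS+MIC-1 against LPS gave no call in liver. Timp1 was at 11.0, 50.1 and 10.7 FPKM with LPS+MIC-1. Libraries 1 and 3 were below every LPS library and library 2 lay among them, with a Log2FC of -1.48 ± 0.54 (limma, unadjusted p below 0.05, adjusted p = 0.997). Mmp9 was at 1.28, 2.51 and 1.25 FPKM and Mmp14 at 36.4, 52.6 and 28.5 FPKM, both with library 2 the highest of the group and both overlapping with LPS. With LPS library 2 and LPS+MIC-1 library 2 left out together, a choice made after seeing the data, Timp1 passed as lower (-2.07 ± 0.25, adjusted p = 0.019). Mmp9 (-1.04 ± 0.33, adjusted p = 0.172), Mmp14 (-0.70 ± 0.22, adjusted p = 0.172) and Timp3 (-1.11 ± 0.22, adjusted p = 0.0565) did not.

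Over all 9 liver libraries, 0 of the 6 members and 0 (0%) of all genes passed in this comparison. Timp1 was the 1 member with an unadjusted p-value below 0.05 and the minimum fold change, as were 100 genes (0.986%). Timp3 was at 4.21, 5.89 and 4.004 FPKM (-0.58 ± 0.33) and Timp2 at 1.97, 0.975 and 1.64 FPKM (-0.04 ± 0.35), both overlapping with LPS. Mmp19, at 13.5, 9.38 and 13.5 FPKM, also overlapped. Mmp13 was at 0.275, 0.328 and 0.290 FPKM, 10 reads in each library, below all LPS libraries and above all controls. Against LPS its Log2FC without the filter was -0.38 ± 0.12 (limma, adjusted p = 1).

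Against control, 2 of the 6 members passed with LPS+MIC-1, where 25.2% of all genes passed: Timp1 (3.79 ± 0.54, adjusted p = 0.00249) and Mmp9 (1.54 ± 0.37, adjusted p = 0.0144), both higher. Mmp14 was above all controls but short of the minimum fold change (0.86 ± 0.28, adjusted p = 0.0404), which it passed without LPS+MIC-1 library 3 (1.06, adjusted p = 0.0417). With FPKM brought to an equal sum Timp2 passed as lower (-1.12, adjusted p = 0.0193). Mmp2 was at 0.521, 0.594 and 0.4502 FPKM, below all controls, with a Log2FC of -0.78 ± 0.21 without the filter (adjusted p = 0.0344). These comparisons share their LPS+MIC-1 or control libraries with the 2 above.

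The summed FPKM of the proteases was 3.602, 4.31 and 4.02 times that of the inhibitors in control liver. It was 1.45, 0.750 and 0.953 times in the LPS libraries and 3.03, 1.15 and 2.69 times with LPS+MIC-1. Every LPS library was below every control, and LPS+MIC-1 library 2 lay among the LPS libraries. The fall of this ratio with LPS in liver stands beside a higher ratio in macrophage LPS libraries 1 and 3, and the difference between the tissues was not tested.

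Neutrophil markers also varied between the liver libraries. The 10 measured neutrophil markers, 7 of them above a mean of 1 FPKM, summed to 37.4, 53.0 and 39.0 FPKM in control livers, 373, 350 and 445 FPKM after LPS alone and 190, 459 and 203 FPKM with LPS+MIC-1. LPS+MIC-1 library 2 was thus the highest of its group in this sum as in Timp1, Mmp9 and Mmp14. LPS library 2 was the lowest of its group in this sum, in Mmp9 and in Mmp14, but the highest in Timp1, at 61.5 FPKM. S100a9 was listed at 0 in 2 controls and was at 20.52, 57.37 and 32.15 FPKM with LPS+MIC-1, while Csf3r was at 0 in 6 of the 9 libraries. S100a8 made up most of the sum in the treated libraries (141.0 to 338.7 FPKM). Cxcr2 made up most of it in the controls and went the other way, at 26.46 to 42.62 FPKM in control, 3.891 to 10.08 FPKM with LPS and 3.595 to 7.79 FPKM with LPS+MIC-1. Stellate cell or fibroblast markers summed to 135 to 243 FPKM in control, 115 to 162 FPKM with LPS and 80.5 to 144 FPKM with LPS+MIC-1, mostly Dcn. The summed level of the 9 measured monocyte or macrophage markers was lower in every control than in any treated library (median control 31.88 FPKM). It was 55.88 to 97.99 FPKM with LPS and 93.92, 48.1 and 94.19 FPKM with LPS+MIC-1. Library 2 was the lowest of its group in this sum in both treated groups, and among the LPS+MIC-1 libraries it had the highest Mmp9. The part of these cell types in the results was not tested.

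Of the other Mmp genes and inhibitors 4 were tested in liver, and 2 rose and 1 fell with LPS, where 24.6% of all genes were called. Mmp8 was at 8.87, 4.41 and 5.64 FPKM with LPS and 2.68, 5.83 and 2.96 FPKM with LPS+MIC-1, against at most 0.214 FPKM in control (Log2FC with LPS 3.42 ± 0.35, adjusted p = 0.000709). Mmp7, matrilysin, had 1 read over the 3 controls and was at 6.30, 2.47 and 4.76 FPKM with LPS, a ratio per read of depth of 77.5 with a 95% interval of 13.8 to 3080 for counting error. The membrane-anchored Mmp15 was at 10.7, 7.15 and 6.78 FPKM without LPS and 0.483, 4.99 and 0.789 FPKM after it (-2.16 ± 0.59, adjusted p = 0.0248). LPS library 2 was much nearer to the controls than the other two were.

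Of 11 tested activators, inhibitors and partners in liver, 4 were called higher and 1 lower with LPS, where 24.6% of all genes were called (median Log2FC 0.77 against 0.15 for all genes). They were led by Lcn2 (6.21 ± 1.18, adjusted p = 0.00732) and the protease trap A2m (4.53 ± 1.02, adjusted p = 0.0126), and urokinase Plau fell (-1.44 ± 0.42, adjusted p = 0.0297). The controls of Lcn2 and A2m varied widely. Lcn2 was at 405, 2037 and 35.5 FPKM in control and at 22434, 18268 and 29552 FPKM with LPS. A2m was at 0.947, 7.33 and 0.0379 FPKM in control and at 72.0, 13.1 and 75.9 FPKM with LPS. With LPS+MIC-1 against control 6 were called higher and 1 lower, where 25.2% of all genes were called, and against LPS 0. Of 10 tested matrix genes 3 rose and 1 fell with LPS, against the same 24.6% of all genes. The type IV collagen gene Col4a1 was at 4.30, 5.10 and 3.69 FPKM without LPS and 41.4, 15.8 and 38.8 FPKM after it (2.63 ± 0.38, adjusted p = 0.00301), Nid1, a basement membrane linker, rose by 1.36 ± 0.45 on the log2 scale (adjusted p = 0.0468), and elastin, Eln, fell (-1.42 ± 0.43, adjusted p = 0.0334). Of 3 tested ADAM and ADAMTS genes, Adamts1 rose (1.35 ± 0.33, adjusted p = 0.0158).

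The genes whose pattern was most like that of each member were found by Pearson's r of log2(FPKM + 0.5) over the 9 libraries of a table, as a description, since the points share treatments and libraries. In macrophages, for the members other than Mmp19, these were Adam15, Metrnl and Rgl3 for Mmp9 (r = 0.998, 0.996 and 0.995) and Trem1, Flrt2 and Soat2 for Mmp12 (0.996, 0.995 and 0.99). For Timp1 they were Ccl22, Usp22 and Sh3glb1 (0.995, 0.992 and 0.992), for Timp2 Aldh2, Fkbp1b and Ndufa7 (0.995, 0.993 and 0.991), and for Mmp14 Lst1, Diap1 and B3gnt3 (0.992, 0.99 and 0.986). Many other genes were nearly as close. The genes with r above 0.95 numbered 217 for Mmp9, 123 for Mmp12, 582 for Timp1, 229 for Timp2 and 59 for Mmp14.

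In liver S100a11, Ncf1 and Bax were nearest to Timp1 (r = 0.997, 0.99 and 0.987) and Pitpna, Gbp10 and Creb3l3 to Mmp9 (0.992, 0.988 and 0.986). For Mmp14 they were Gzmb, Gyg and Cd14 (0.977, 0.972 and 0.968), for Mmp19 Fndc3a, Hrg and Aldh1b1 (0.969, 0.966 and 0.942), for Timp2 Repin1, Spag7 and Arl6ip1 (0.984, 0.976 and 0.965), and for Timp3 Sbds, Sec23b and Ptges (0.975, 0.955 and 0.954). The genes with r above 0.95 numbered 90 for Timp1, 112 for Mmp9, 27 for Mmp14, 2 for Mmp19, 5 for Timp2 and 3 for Timp3.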

How the data were processed

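RNA-seq was done on 9 RAW264.7 and 9 liver libraries, sequenced at BGI. The authors pseudoaligned reads to an mm9 RefSeq index with kallisto 0.45.0, collapsed transcripts to genes with tximport, and deposited FPKM that DESeq2 1.20.0 computed, per the methods and the submitters' processing notes. Of the authors' comparison tables (fold changes and p-values) only the mean normalized count over libraries was used, with the steps between low FPKM values, to estimate reads: 93 to 97% of the low values examined came within 0.1 of a whole read. Estimated reads serve for depth, for the read numbers given beside low FPKM values and for the ratios of few reads, not for the limma fits.

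Samples were grouped by tissue and treatment. Each table was fitted alone with limma 3.58.1 (R 4.3.3; lmFit, contrasts.fit, eBayes with trend) on log2(FPKM + 0.5), over genes with a mean FPKM above 1 in 9 libraries, with all 3 groups in 1 fit and Benjamini-Hochberg adjustment. The thresholds are an absolute Log2FC above 1 and an adjusted p-value below 0.01 (macrophages) or 0.05 (liver). The fit was tested on simulated data. Exact permutation tests were two-sided, and ratios of few reads carry exact binomial 95% intervals. The members and lists were chosen with earlier results of these data known. All 9 members are named, with up to 2 genes per direction of each part of the family lists by absolute Log2FC among those called in the fit described, the 3 genes of highest r, and markers with their list. Some results that this rule names are not reported here. Mmp3, Mmp10, Mmp20, Mmp1a, Mmp1b and the cluster, and Syn1 and Syn3, were added after their values were seen. Gene positions are from GENCODE vM1 (mm9), promoters from RefSeq (GRCm38.p6). Tables and figures were made with pandas 2.3.3, numpy 2.4.6 and matplotlib 3.10.9 in Python 3.11.15. A total of 12 kinds of alternatives were planned and 1 was added after seeing the data.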

Additional observations from a re-analysis of the deposited data

Results flagged for a closer look

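The 9 members were examined in 3 comparisons each, or 27 in all, with 9 and with 8 macrophage libraries. In 3 of them every macrophage library moved one way and every liver library the other, and the difference between the tissues was not tested because the tables were scaled separately. With LPS+MIC-1 against control, Mmp2 was higher in macrophages (difference of mean log2(FPKM + 0.5) 1.17) and lower in liver (-0.78). With LPS+MIC-1 against LPS, Mmp13 was higher in macrophages (1.26) and lower in liver (-0.38). With LPS against control, Timp2 was higher in the 8 macrophage libraries (1.54) and lower in liver (-0.57), and this did not hold with LPS library 2 of the macrophages. Ranges lay apart in opposite directions for 12.5% of the 15374 genes with reads in both tables in the first of these comparisons, for 1.96% in the second and, over 8 macrophage libraries, for 13.5% of 15276 genes in the third. The Mmp2 and Mmp13 values rest on levels below 3 FPKM in every library.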

How the results depend on the processing

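No paired analysis was possible because the columns of the tables carry no replicate numbers. Of 1008 values of single members under the alternatives, 936 kept their direction and their side of the threshold. The number of members called moved as follows. In the 9 macrophage libraries it ranged from 0 to 4 (LPS against control), 1 to 3 (LPS+MIC-1 against LPS) and 1 to 2 (LPS+MIC-1 against control) with 1 library left out, where each upper value is that without LPS library 2. Fitting the compared pair of groups alone gave 0 for LPS+MIC-1 against LPS and 2 against control, with adjusted p below 0.05 it was 2 against control, and with libraries 1 and 3 averaged it was 0 in both. In the 8 libraries it ranged from 3 to 4, 2 to 3 and 2 to 2 with 1 library left out. For LPS against control it was 2 with an equal FPKM sum in each library and 1 with libraries 1 and 3 averaged, which also gave 1 for LPS+MIC-1 against control and 2 against LPS, where Timp2 was lost. This averaging leaves 1 LPS value in that fit. With adjusted p below 0.05 it was 4 for LPS+MIC-1 against LPS, where Mmp14 was added. In liver it ranged from 2 to 3, 0 to 0 and 2 to 3, and for LPS+MIC-1 against LPS it was 1 with unadjusted p and 1 with both libraries 2 left out. The cause of these moves was not tested, beyond the fewer libraries in the averaged and reduced fits.

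No value past its threshold in the main setting reversed. With an equal FPKM sum in each library, Mmp19 became -0.4809, 0.3555 and -0.1254 in the 3 comparisons (LPS against control, LPS+MIC-1 against LPS, LPS+MIC-1 against control) over 9 macrophage libraries, -0.7979, 0.6723 and -0.1256 over 8, and -0.2095 for LPS+MIC-1 against LPS in liver, and Mmp9 became 0.05193 for LPS+MIC-1 against LPS over 8. Averaging libraries 1 and 3 gave -0.1287 for Mmp19 (LPS+MIC-1 against control, both fits) and 0.02233 for Mmp12 with LPS over 9 libraries, for which a pseudocount of 1 gave 0.006764. Leaving out 1 library, Mmp12 with LPS ranged from -0.1803 to 0.2686 over 9 libraries and from -0.568 to 0.33 over 8, and Mmp9 for LPS+MIC-1 against LPS from -0.7497 to 0.7766 over 9. Mmp19 ranged from -0.01941 to 0.2506 with LPS over 8, from -0.1894 to 0.1066 (9 libraries) and -0.1511 to 0.145 (8) for LPS+MIC-1 against LPS, and from -0.06638 to 0.238 and -0.06638 to 0.238 against control. In liver Mmp19 ranged from -0.2087 to 0.1684 with LPS, -0.01518 to 0.2357 for LPS+MIC-1 against LPS and -0.1403 to 0.2368 against control, Timp2 from -0.1945 to 0.1775 for LPS+MIC-1 against LPS, and Timp3 from -0.3093 to 0.00759 against control. Without both libraries 2, Timp2 became 0.2073 (LPS+MIC-1 against LPS) and Mmp19 0.1627 (against control). The equal sum moved the share of called genes that were higher from 47.5 to 9.8% and from 48.5 to 93.1% in the 8 macrophage libraries (LPS, then LPS+MIC-1 against LPS), from 53.3 to 86% in the 9 (LPS+MIC-1 against LPS), and from 54.4 to 30.1% and 54.5 to 17.2% in liver (LPS and LPS+MIC-1 against control). In the controls Timp1 rests on 4 to 6 reads and liver Mmp9 on 0 to 7, which limits those ratios.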
